A study of Homo sapiens with 12 samples.

Results

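The chromosome 9p stretch around JAK2 is a run of neighbouring genes on the short arm of human chromosome 9. Its members are the protein-coding genes that start between positions 3800000 and 15600000 of chromosome 9 (GRCh38), without CD274 and PDCD1LG2, the genes of the checkpoint ligands PD-L1 and PD-L2. There were 36 such genes among the 19951 protein-coding genes and 58735 genes of the count table, and 25 of the 36 passed the filter on low counts and entered the fit over 15821 genes. The members were chosen by measured values, namely the level of the region in each library relative to the other libraries after GC correction, so every contrast of the libraries where it is high with those where it is low is given as a description, and calls of members in such a contrast support nothing. RNA was sequenced from MDA-MB-231, an established human triple-negative breast cancer line, in 12 libraries: 3 with a guide RNA against UFM1 (sgUFM1), 3 with a guide against UFL1 (sgUFL1) and 3 control-guide libraries for each of these guides. Knockdown is the word of the series title, KO that of its design text. Clones and pools of cells are not told apart in the labels, and neither are separate cultures and repeat libraries, so that the p-values cover only library-to-library spread, possibly technical.

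For 6 libraries the name in the count table is exchanged with that in the FPKM table, and neither table was taken as the right one. Set 2 is 3 libraries called controls for sgUFM1 in the count table and sgUFL1 in the FPKM table. Set 1 is 3 libraries called sgUFL1 in the count table and controls for sgUFM1 in the FPKM table. The sgUFM1 libraries and the controls for sgUFL1 carry the same names in both tables. Under the count names the guide effects are therefore sgUFM1 against set 2 and set 1 against the controls for sgUFL1. Under the FPKM names they are sgUFM1 against set 1 and set 2 against the controls for sgUFL1.

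JAK2 is a tyrosine kinase bound to cytokine and interferon receptors, and it phosphorylates STAT transcription factors, which then enter the nucleus. The distal part of 9p carries it beside the checkpoint ligand genes, and gains of this region are known in triple-negative breast cancer and in some lymphomas. Genes of a chromosome region that is gained or lost often change their transcript level together, but copy number was not measured here, and its part in any difference below was not tested.

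The promoters of the 3 genes that mark the telomeric end, the JAK2 locus and the centromeric end of the stretch are shown because these genes moved together in some libraries and apart in others. They come from RefSeq (GRCh38.p14), run 5′ to 3′ on the strand of the gene from 250 bases before to 50 bases after its start, and carry each CG dinucleotide in capitals.
GLIS3: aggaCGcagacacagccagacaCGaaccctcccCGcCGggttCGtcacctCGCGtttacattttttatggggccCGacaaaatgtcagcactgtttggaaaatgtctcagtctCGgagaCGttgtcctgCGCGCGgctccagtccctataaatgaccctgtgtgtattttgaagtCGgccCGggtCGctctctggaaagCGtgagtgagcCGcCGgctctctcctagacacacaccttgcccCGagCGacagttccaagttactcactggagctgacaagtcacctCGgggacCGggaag
JAK2: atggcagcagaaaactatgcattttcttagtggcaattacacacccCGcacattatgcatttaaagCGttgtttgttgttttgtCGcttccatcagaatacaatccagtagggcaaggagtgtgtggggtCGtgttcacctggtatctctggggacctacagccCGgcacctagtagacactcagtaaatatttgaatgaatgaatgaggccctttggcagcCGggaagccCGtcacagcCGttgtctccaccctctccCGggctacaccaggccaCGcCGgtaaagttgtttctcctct
PSIP1: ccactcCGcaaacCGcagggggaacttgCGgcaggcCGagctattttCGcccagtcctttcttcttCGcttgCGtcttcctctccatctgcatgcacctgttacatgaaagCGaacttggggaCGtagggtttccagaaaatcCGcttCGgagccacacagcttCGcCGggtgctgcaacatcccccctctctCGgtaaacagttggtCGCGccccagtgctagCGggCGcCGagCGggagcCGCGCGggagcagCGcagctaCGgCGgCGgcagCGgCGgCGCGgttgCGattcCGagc
The GLIS3 window lies at chr9:4298447-4298746 on the minus strand, inside the gene's annotated span since the RefSeq start is an internal one, and holds 23 CG dinucleotides at 57.3% GC. The JAK2 window, chr9:4984140-4984439 on the plus strand, holds 11 at 50.3% GC, fewer than the median of 14 over all 35116 promoters of that length. The PSIP1 window, chr9:15510921-15511220 on the minus strand, holds 33 at 64% GC. A RefSeq promoter was found for 34 of the 36 members, with a median GC content of 58.3% against 58.7% for all promoters. On both strands, the STAT-binding pattern TTCNNNGAA occurred in 1 of the 34 (TYRP1, 2.94%, against 7.66% of all promoters) and the interferon-stimulated response element in 1 (NFIB, 2.94%, against 3.57%). CCAAT occurred in 14 (41.2% against 34.6%) and TATAAA in 4 (11.8% against 11.5%), GLIS3 among them. A match is a run of letters in the window, and none of these shares was tested.

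Libraries held 15342793 to 18033331 counts. The UFM1 transcript averaged 37.8 ± 1.18 CPM in sgUFM1, 64.1 ± 5.95 in set 2, 56.2 ± 4.24 in set 1 and 52.8 ± 4.48 in the controls for sgUFL1 (SD, n = 3 each). UFL1 averaged 22.5 ± 1.14 CPM in sgUFM1, 14.6 ± 1.09 in set 2, 18.9 ± 1.29 in set 1 and 20.2 ± 2.66 in the controls for sgUFL1, so it was lowest in set 2, the libraries that only the FPKM table calls sgUFL1. These and all CPM values below are counts scaled to CPM after removal of each library's trend with GC content and gene length, except the summed marker levels, the floor and the filter, which are plain counts over the library's total. Markers of the line were present, with 18526 to 24919 counts of MSN and 12212 to 17535 of VIM per library, while SPARC, listed with them, had only 4 to 21. Of the luminal genes listed as low in this line, ESR1 had 0 to 12, PGR 3 to 21 and CDH1 0 to 6 counts, and GATA3 had 24 to 87. Of the same list KRT19, with 1776 to 3862 counts, ERBB2, with 653 to 1267, FOXA1, with 279 to 461, and EPCAM, with 91 to 178, were detected in every library. The 10 leukocyte genes of the list together came to 2.23 to 4.44 CPM in any library, with CD3E and MS4A1 at 0 throughout, and 10 stromal genes to 15.3 to 31.9 CPM. MTAP, CDKN2A and CDKN2B of the 9p21 region, which is known to be deleted in MDA-MB-231 and lies centromeric of the stretch, had 0 counts in all 12 libraries, which allows at most 0.166 to 0.196 CPM (3 counts of a library's total, counting error only). In bulk RNA, fewer cells with a transcript and less of it per cell cannot be told apart.

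The stretch was higher in the sgUFM1 libraries and in set 2 than in set 1 and the controls for sgUFL1. Its level in a library is the median over the 25 tested members of the log2 difference from the member's own mean over the 12 libraries. That level was 0.28, 0.19 and 0.20 in the sgUFM1 libraries and 0.38, 0.20 and 0.28 in set 2. Set 1 stood at -0.10, -0.30 and -0.31, and the controls for sgUFL1 stood at -0.12, -0.36 and -0.19. The lowest of the 6 high libraries, at 0.19, thus lay above the highest of the 6 low ones, at -0.10. In means ± SD the levels were 0.22 ± 0.05 in sgUFM1, 0.29 ± 0.09 in set 2, -0.24 ± 0.12 in set 1 and -0.22 ± 0.12 in the controls for sgUFL1 (n = 3 each). Between 19 and 24 of the 25 members were above their own mean in each high library, and 1 to 8 were in each low library. Without JAK2, GLIS3 and PSIP1 the group means were 0.22, 0.30, -0.24 and -0.22 over the 22 other members in the same order.

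**Figure D1:**
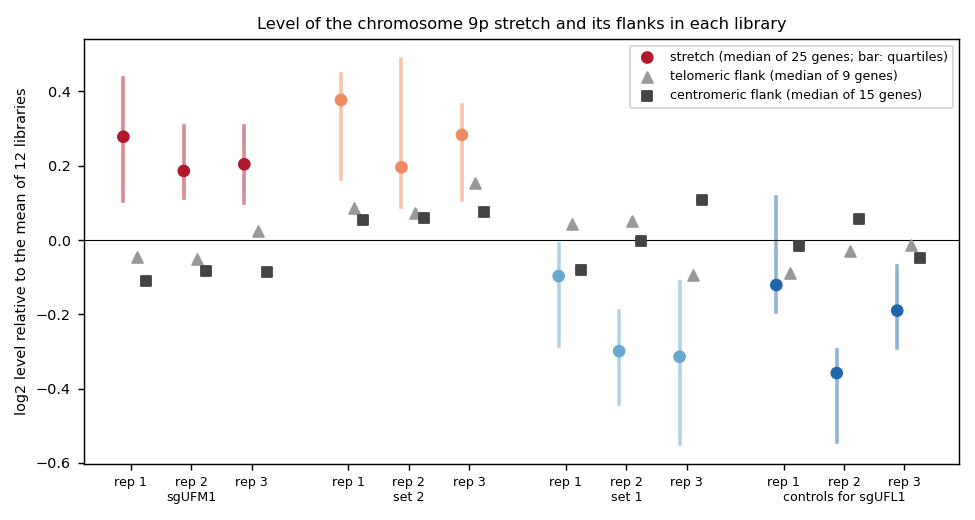
Median log2 level, relative to the mean of the 12 libraries, of the 25 tested members (coloured circles, bars from the lower to the upper quartile of the members), of the 9 tested genes on the telomeric side (triangles) and of the 15 on the centromeric side up to 30 Mb (squares), for each library. The 6 libraries of sgUFM1 and set 2 sit between 0.19 and 0.38, all above the 6 of set 1 and the controls for sgUFL1, while the flanks sit between -0.11 and 0.15.

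This level depends on the correction for GC content and length, called the GC correction from here on. The tested members had a median GC content of 42.4% against 48.8% for all tested genes, and libraries differed in how GC-rich their reads were. Averaged over counts, GC ranged between 49.8% and 50.3% in sgUFM1, between 50.4% and 50.9% in set 2, between 50.3% and 50.5% in set 1 and between 48.3% and 49.4% in the controls for sgUFL1. Without the correction the levels were 0.26 in each sgUFM1 library and 0.25, 0.15 and 0.10 in set 2. Set 1 then stood at -0.15, -0.34 and -0.37, and the controls for sgUFL1 stood at 0.03, -0.31 and 0.08. The order of high and low libraries stayed, but the gap between the lowest high library, at 0.10, and the highest low one, at 0.08, was small. In the controls for sgUFL1 the correction took a median of 0.15, 0.10 and 0.32 off the members' log2 values, while in set 2 it added 0.07, 0.19 and 0.18. The part of GC content in the difference was not tested beyond these values.

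Across both high sets against both low sets, the member median was 0.54 on the log2 scale and 23 of the 25 tested members were above 0, while the median of all tested genes was -0.01. The exceptions were CCDC171 at -0.19 and SLC1A1 at -0.08, and the top of the range was INSL4 at 1.16, on 1 to 21 counts per library. The member median was 0.40 for sgUFM1 against the controls for sgUFL1, 0.50 for set 2 against the same controls and 0.47 for sgUFM1 against set 1, and the comparisons with a shared group are not independent of each other. All 6 high libraries stood above all 6 low ones for 9 members, namely CDC37L1, AK3, JAK2, RANBP6, UHRF2, LURAP1L, MPDZ, SNAPC3 and PSIP1, beside 1.96% of all tested genes, and the reverse held for 0 members, beside 1.98%. Without the GC correction 6 members separated the libraries, beside 1.59% of all tested genes. JAK2, RANBP6, UHRF2 and MPDZ then overlapped and DMAC1 separated. In the edgeR fit over all genes, whose calls of members in these contrasts the choice of the stretch helped to fix, 10 members passed as higher in sgUFM1 than in the controls for sgUFL1, beside 6.03% of all tested genes, and 0 were lower, beside 6.26%. For set 2 against these controls 10 members passed as higher, beside 6.16%, and 0 lower, beside 5.83%. For sgUFM1 against set 1 the counts were 6 higher, beside 4.01%, and 0 lower, beside 3.62%, with 7.62% of all tested genes past the threshold in either direction. Nothing is read from these counts.

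The level of the stretch fell off near both of its edges, with smaller differences farther along chromosome 9. The stretch was chosen by its level in these same libraries, which helped to fix this fall. It is therefore given as a description only. On the telomeric side the nearest tested genes outside were RFX3, a transcription factor of ciliated cells, at -0.03, PUM3, a nucleolar RNA-binding protein, at -0.05, and KCNV2, a potassium channel subunit, at -0.71 for both high sets against both low sets. KCNV2 averaged 0.301 to 0.715 CPM in the 4 groups, close to the level of the filter. The members just inside were GLIS3 at 0.55, SLC1A1 at -0.08 and PLPP6 at 0.54. On the centromeric side CCDC171, at -0.19, PSIP1, at 0.47, and SNAPC3, at 0.58, were the last inside. Outside followed ADAMTSL1, an extracellular matrix protein, at 0.00, RRAGA, a GTPase of the nutrient-sensing mTORC1 pathway, at -0.20, and HAUS6, a subunit of the spindle complex augmin, at -0.23. For the same contrast the median was -0.02 over the 9 tested genes of the telomeric flank, 0.01 over the 15 of the centromeric flank up to 30 Mb and 0.07 over the 457 other tested genes of chromosome 9. In windows of 10 Mb, described below, these others were not alike. The medians were 0.16 at 30 to 40 Mb and 0.19, 0.15, 0.16 and 0.18 in the windows from 60 to 100 Mb. Those from 100 to 140 Mb were at 0.07, 0.04, 0.02 and -0.02. Over the genome outside the stretch the windows had a median of -0.02 and a highest value of 0.22.

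**Figure D2:**
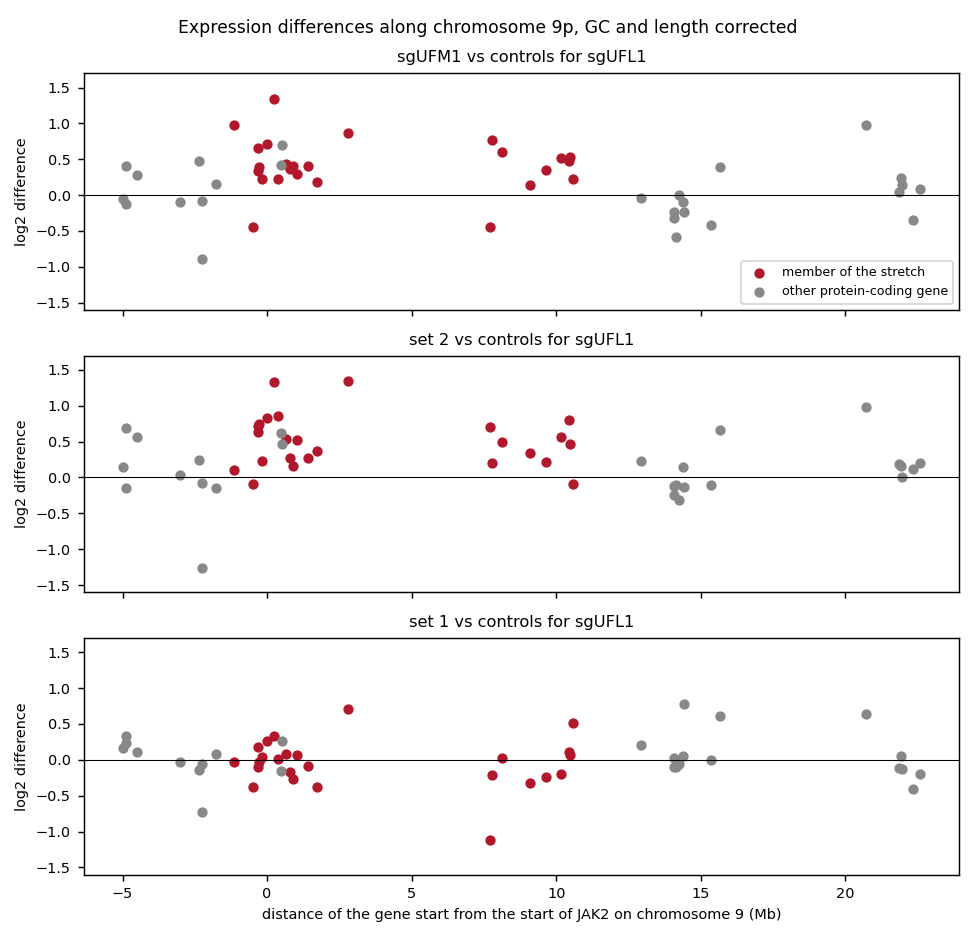
Log2 difference in expression (vertical axis) of each tested protein-coding gene of chromosome 9p from WASHC1 to C9orf72, for sgUFM1, set 2 and set 1, each against the controls for sgUFL1. The horizontal axis is the distance of the gene's start from that of JAK2 in Mb, and the rest of 9p toward the centromere is not drawn. Members (red) lie mostly above 0 in the upper and middle panels, with medians of 0.40 and 0.50, and scatter about 0 in the lower panel, with a median of -0.03; the 2 grey points beside JAK2 are CD274 and PDCD1LG2.

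The stretch falls into 2 blocks on either side of PTPRD, a receptor tyrosine phosphatase gene that spans 8314246 to 10612723 and was too low to be tested. The telomeric block, from GLIS3 to DMAC1, had 16 tested members with a median of 0.40 for sgUFM1 and 0.53 for set 2, each against the controls for sgUFL1. The centromeric block, from TYRP1 to CCDC171, had 9 with medians of 0.47 and 0.47. Both blocks were therefore high in both sets of libraries. When the genome outside the stretch was divided into windows of 10 Mb with at least 10 tested protein-coding genes, 288 windows remained. Their medians ran from -0.51 to 0.31 for sgUFM1 and from -0.60 to 0.33 for set 2, each against the controls for sgUFL1. As a description of the contrasts that chose the stretch, none of the 288 reached the stretch in either contrast, and the same held for sgUFM1 against set 1, where the highest window was at 0.30.

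**Figure D3:**
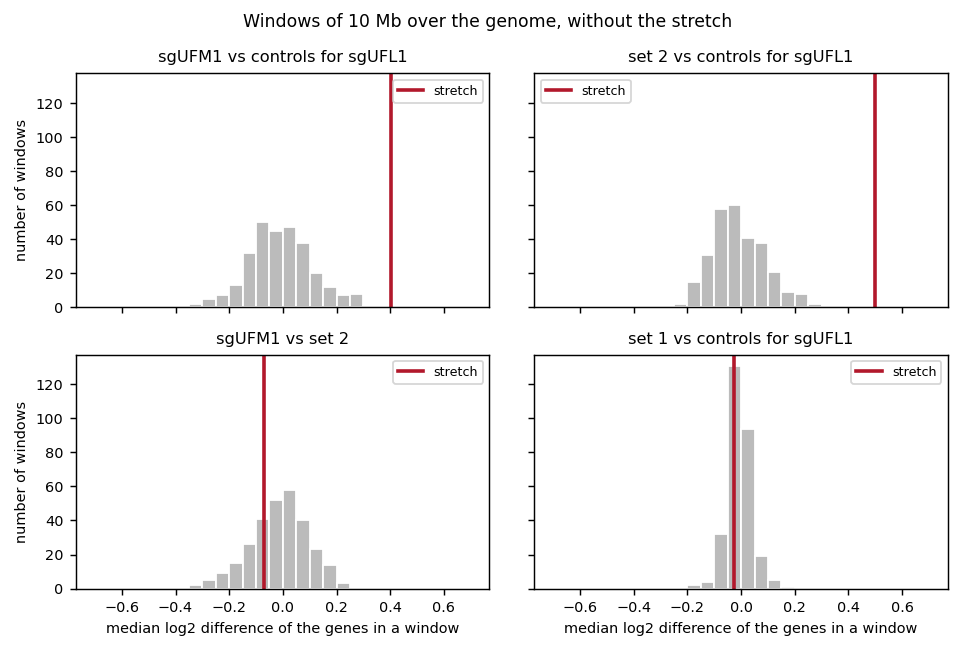
Number of 10 Mb windows (vertical axis) by the median log2 difference of their tested genes (horizontal axis) in 4 comparisons, with the stretch as a red line. The line lies right of all 288 windows at 0.40 for sgUFM1 and 0.50 for set 2 against the controls for sgUFL1, and within them at -0.07 for sgUFM1 against set 2 and -0.03 for set 1 against the controls for sgUFL1.

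Among the members with a role in signalling, 5 of 11 were tested and all 5 were above 0 for both high sets against both low sets, with a median of 0.59. JAK2 (ENSG00000096968, 4984390 to 5128183) stood at 6.79, 5.92 and 5.37 CPM in the sgUFM1 libraries and at 6.57, 6.98 and 6.05 in set 2. It had 4.66, 3.91 and 4.70 CPM in set 1 and 3.51, 3.13 and 4.39 in the controls for sgUFL1. After the GC correction the 6 high libraries did not overlap with the 6 low ones, on only 57 to 111 counts per library. Without it they did, since replicate 3 of the controls for sgUFL1 had 5.93 CPM and replicate 3 of set 2 had 5.10. JAK2 was higher by 0.71 (SE 0.18) in sgUFM1 and by 0.83 (SE 0.18) in set 2 than in the controls for sgUFL1 on the log2 scale, with values of 0.47 and 0.35 without the GC correction. RIC1, part of the exchange factor that activates the Golgi GTPase RAB6, had 17.98, 18.7 and 20.2 CPM in sgUFM1, 21.7, 21.4 and 17.87 in set 2, 17.92, 12.9 and 13.4 in set 1 and 14.6, 13.3 and 14.0 in the controls for sgUFL1. A set 1 library thus overlapped with set 2. RIC1 shares exon sequence with ERMP1 on the other strand, and whether counting used strand is not given in the sources used here. PLGRKT, a plasminogen receptor, was at 0.86 (SE 0.15) in set 2 and at 0.23 (SE 0.16) in sgUFM1 against the controls for sgUFL1. LURAP1L was at 0.77 (SE 0.20) in sgUFM1 and 0.20 (SE 0.20) in set 2. INSL4, an insulin-like peptide of the placenta, averaged 0.887 CPM in sgUFM1, 0.882 in set 2, 0.440 in set 1 and 0.351 in the controls for sgUFL1, and it passed the filter through the high libraries, with 5 of these 6 and 1 of the 6 low ones at the 0.627 CPM it asks for.

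All 9 members that act on chromatin, transcription or RNA in the nucleus were tested, and all 9 were above 0 for both high sets against both low sets, from 0.21 to 0.58. PSIP1 (15464066 to 15511019), a chromatin reader also known as LEDGF that tethers the HIV integrase, had 66.3, 73.4 and 73.0 CPM in sgUFM1 and 63.6, 68.8 and 71.8 in set 2. In set 1 it had 55.2, 51.1 and 48.2, and in the controls for sgUFL1 51.7, 48.9 and 46.6. No high library overlapped with a low one, and the difference was 0.53 (SE 0.08) for sgUFM1 and 0.47 (SE 0.08) for set 2 against the controls for sgUFL1, or 0.37 and 0.13 without the GC correction. GLIS3 (3824127 to 4348392), a zinc finger transcription factor of pancreatic beta cells and kidney, did not follow the stretch in set 2. It had 24.5, 26.5 and 24.9 CPM in sgUFM1, 14.8, 13.5 and 13.0 in set 2, 10.6, 12.4 and 14.8 in set 1 and 12.3, 16.5 and 9.67 in the controls for sgUFL1. The 3 sgUFM1 libraries were the highest and the other 9 overlapped, with log2 differences from the controls for sgUFL1 of 0.98 (SE 0.16) in sgUFM1 and 0.10 (SE 0.17) in set 2. GLIS3 shares exon sequence with antisense genes, among them GLIS3-AS1.

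UHRF2, a ubiquitin ligase that reads modified cytosines in DNA, had 26.5, 23.2 and 25.2 CPM in sgUFM1, 22.1, 23.7 and 22.5 in set 2, 19.3, 16.2 and 17.8 in set 1 and 19.96, 16.8 and 19.9 in the controls for sgUFL1. RANBP6, a relative of the nuclear import receptor importin-5, had 20.96, 21.8 and 22.7 CPM in sgUFM1, 27.1, 23.1 and 26.7 in set 2, 17.0, 19.7 and 19.4 in set 1 and 18.5, 18.1 and 17.0 in the controls for sgUFL1. Both separated the 6 high from the 6 low libraries after the GC correction and not without it, UHRF2 with its highest values in sgUFM1 and RANBP6 with its highest in set 2. SNAPC3, a subunit of a complex that acts in the transcription of small nuclear RNA genes, had 19.5, 18.1 and 20.2 CPM in sgUFM1, 23.7, 24.4 and 24.9 in set 2, 17.8, 15.8 and 11.5 in set 1 and 16.3, 11.03 and 14.5 in the controls for sgUFL1. NFIB, a transcription factor of lung and brain development, had 22.02, 18.6 and 19.5 CPM in sgUFM1, 26.4, 19.7 and 23.2 in set 2, 15.1, 14.0 and 14.5 in set 1 and 23.2, 12.7 and 18.5 in the controls for sgUFL1. SNAPC3, whose exons overlap those of PSIP1 on the other strand, separated high from low libraries, whereas NFIB did not, since the first library of the controls for sgUFL1 reached the level of set 2. KDM4C, a histone H3K9 demethylase, KIAA2026 and RCL1, which acts in ribosomal RNA processing, were at 0.47, 0.42 and 0.21 for both high sets against both low sets. None of these 3 separated the 6 high from the 6 low libraries.

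Of 10 members with a role in metabolism, transport or membrane enzymes 8 were tested, and 7 were above 0 for both high sets against both low sets, with a median of 0.56. AK3, the adenylate kinase of the mitochondrial matrix, had 45.9, 45.2 and 45.6 CPM in sgUFM1 and 54.5, 60.1 and 58.7 in set 2. It had 39.5, 29.7 and 32.4 CPM in set 1 and 38.1, 33.0 and 32.7 in the controls for sgUFL1. AK3 was thus highest in set 2 and intermediate in sgUFM1, and the other groups overlapped below. DMAC1, an assembly factor of respiratory complex I, had 14.95, 13.5 and 11.8 CPM in sgUFM1, 17.1, 19.1 and 20.1 in set 2, 11.7, 12.02 and 12.3 in set 1 and 7.27, 7.48 and 7.30 in the controls for sgUFL1. Its values in set 1 overlapped with those of sgUFM1 and lay above all controls for sgUFL1. PLPP6, a lipid phosphatase, ZDHHC21, a palmitoyltransferase, TTC39B, known in mice for its effect on HDL cholesterol, and ERMP1, an endoplasmic reticulum peptidase, were at 0.54, 0.40, 0.63 and 0.40 for both high sets against both low sets. SLC1A1, the glutamate and cysteine transporter EAAT3, was at -0.08, with 18 to 87 counts per library. TYRP1, an enzyme of melanosomes, was at 0.69 on only 3 to 21 counts per library, and 3 of the 12 libraries reached the 0.627 CPM of the filter.

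Of 6 members that act as scaffolds, chaperones or have no known role, 3 were tested. MPDZ, a scaffold of tight junctions with many PDZ domains, had 25.8, 29.6 and 24.6 CPM in sgUFM1, 24.8, 23.9 and 25.9 in set 2, 21.1, 15.7 and 16.8 in set 1 and 18.9, 15.8 and 18.1 in the controls for sgUFL1. Its 6 high libraries lay above its 6 low ones after the GC correction and overlapped without it, with differences of 0.60 (SE 0.12) in sgUFM1 and 0.50 (SE 0.12) in set 2 against the controls for sgUFL1. CDC37L1, a relative of the HSP90 co-chaperone CDC37, averaged 8.92 ± 0.786 CPM in sgUFM1, 9.37 ± 1.42 in set 2, 6.40 ± 0.188 in set 1 and 5.68 ± 0.496 in the controls for sgUFL1 (SD, n = 3 each). CCDC171 averaged 0.863 ± 0.197 CPM in sgUFM1, 0.685 ± 0.182 in set 2, 1.06 ± 0.57 in set 1 and 0.736 ± 0.00676 in the controls for sgUFL1 (SD, n = 3 each), on 7 to 23 counts per library, and did not follow the stretch.

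**Figure D4:**
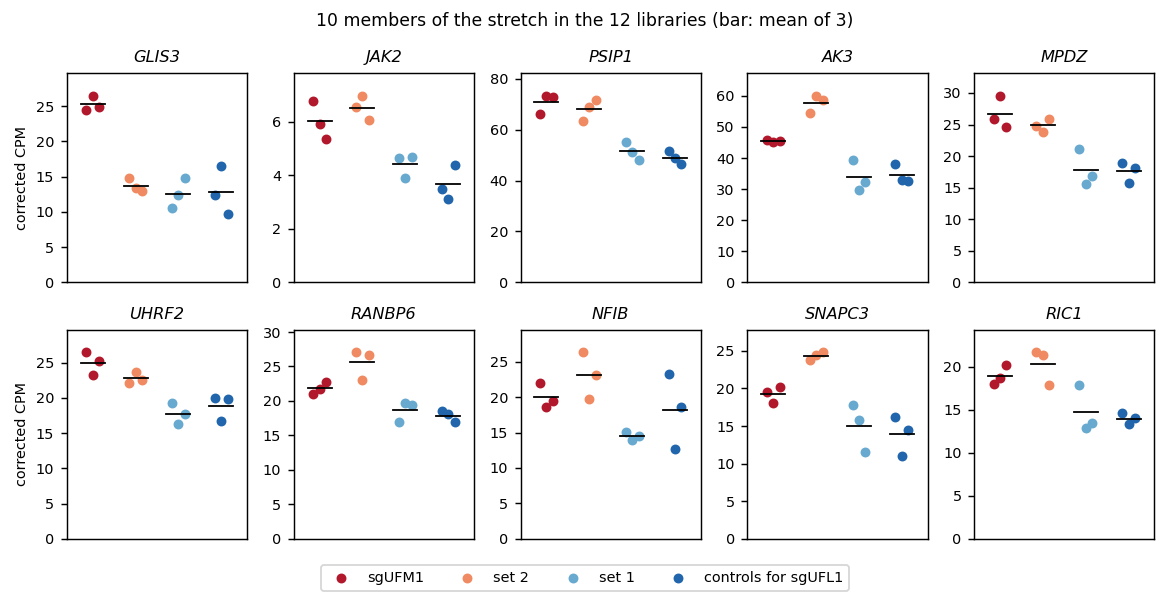
Corrected CPM (vertical axis, from 0) of 10 members in each of the 12 libraries, by group; each point is a library and the black line is the mean of 3. GLIS3 is high in sgUFM1 only, NFIB overlaps between groups, and JAK2, PSIP1, AK3, MPDZ, UHRF2, RANBP6 and SNAPC3 separate sgUFM1 and set 2 from set 1 and the controls for sgUFL1 after the GC correction.

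In all, 11 members were too low to be tested: SPATA6L, INSL6, RLN2, RLN1, MLANA, IL33, TPD52L3, GLDC, PTPRD, CER1 and FREM1. Among them are the relaxin hormones RLN1 and RLN2, the alarmin cytokine IL33, the glycine-cleavage enzyme GLDC and the melanocyte antigen MLANA. Their highest count in any library was 15, for RLN2, and TPD52L3 and CER1 had 0 counts in all 12 libraries. In 22 of the 25 tested members every low library reached the CPM the filter asks for, so their place in the fit did not rest on the high libraries.

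The sgUFM1 libraries and set 2 can be compared with a test, since the choice of the stretch did not use their difference, and under the count names this is the effect of the sgUFM1 guide. The member median was -0.07, against 0.00 for all tested genes, and 10 members were above and 15 below 0. One member rose, beside 7.15% of all tested genes, and 3 fell, beside 7.55%. GLIS3 was higher in sgUFM1 by 0.88 (SE 0.16, edgeR quasi-likelihood test, adjusted p = 0.0025). PLGRKT fell by 0.64 (SE 0.15, edgeR adjusted p = 0.013), DMAC1 by 0.48 (SE 0.11, edgeR adjusted p = 0.011) and AK3 by 0.34 (SE 0.10, edgeR adjusted p = 0.031). JAK2, at -0.12 (SE 0.18, edgeR adjusted p = 0.72), and PSIP1, at 0.06 (SE 0.08, edgeR adjusted p = 0.66), did not pass. The groups did not overlap for these 4 members that passed, nor for LURAP1L, RANBP6 and SNAPC3, which did not pass, so that 2 of the 25 were wholly higher, beside 21.1% of all tested genes, and 5 wholly lower, beside 21.1%.

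The call of GLIS3 held under all 24 alternatives, with values from 0.57 to 0.95. That of PLGRKT ended without set 2 replicate 2 (-0.53, edgeR adjusted p = 0.076) and without sgUFM1 replicate 3 (-0.52, edgeR adjusted p = 0.066), and that of DMAC1 without set 2 replicate 3 (-0.43, edgeR adjusted p = 0.061), without sgUFM1 replicate 3 (-0.40, edgeR adjusted p = 0.06) and without the GC correction (-0.33, edgeR adjusted p = 0.067). AK3 lost its call in 10 of 24 alternatives, among them without each sgUFM1 library (edgeR adjusted p of 0.081, 0.1 and 0.089), without set 2 replicate 2 or 3 (0.12 and 0.1) and without the GC correction (-0.12, edgeR adjusted p = 0.46).

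Set 1 and the controls for sgUFL1 can be tested for the same reason, and under the count names their difference is the effect of the sgUFL1 guide. The member median was -0.03, against -0.01 for all tested genes, with 12 members above and 13 below 0. DMAC1 rose by 0.71 (SE 0.12, edgeR quasi-likelihood test, adjusted p = 0.026), at 11.7 to 12.3 CPM in the 3 set 1 libraries and 7.27 to 7.48 CPM in the 3 controls for sgUFL1. It was 1 of 40 genes that rose in this comparison, or 0.253% of those tested. No member fell, beside 0.0126% of all tested genes. At an unadjusted p under 0.05 DMAC1 was again the 1 member. The share of all tested genes at that threshold is not given here, so nothing is read from this count. The groups did not overlap for DMAC1 and CDC37L1, both higher in set 1, beside 6% of all tested genes higher and 5.78% lower. The call ended without replicate 1 or 3 of the controls for sgUFL1 (edgeR adjusted p of 0.053 and 0.13), without replicate 2 or 3 of set 1 (0.11 and 0.14), without replicate 2 or 3 of set 2 (0.055 and 0.053) and without replicate 2 of sgUFM1 (0.055), and its value stayed between 0.69 and 0.71 in these fits. With the 6 libraries of the comparison alone it was 0.71 (edgeR adjusted p = 0.33). JAK2 was at 0.26 (SE 0.19, edgeR adjusted p = 0.64), PSIP1 at 0.07 (SE 0.08, edgeR adjusted p = 0.78) and GLIS3 at -0.03 (SE 0.17, edgeR adjusted p = 0.97). Without the GC correction the member median moved to -0.21, and AK3 (-0.34, edgeR adjusted p = 0.036) and UHRF2 (-0.41, edgeR adjusted p = 0.045) passed as lower in set 1, beside 9.3% of all tested genes lower in that fit.

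**Figure D5:**
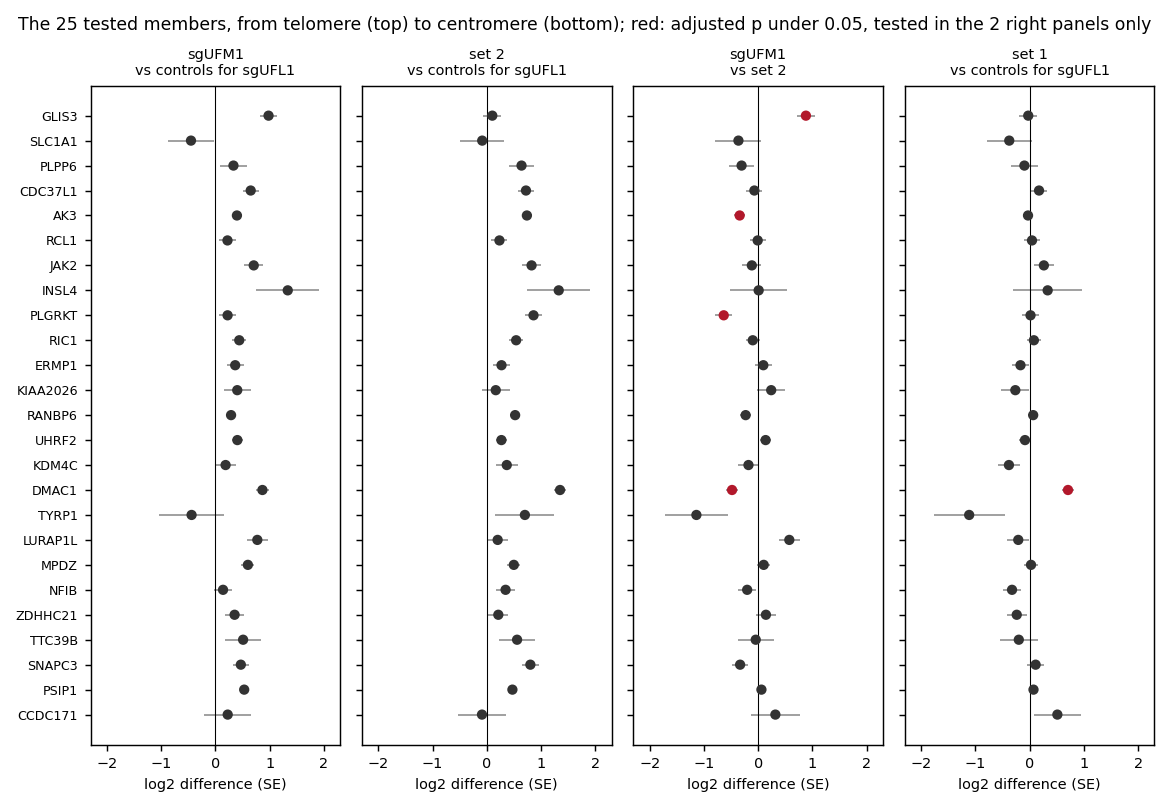
Log2 difference (horizontal axis, bars of 1 SE) of each of the 25 tested members, from the telomeric (top) to the centromeric end (bottom), in 4 comparisons of 3 against 3 libraries. In the left panels, which the choice of the stretch used, 23 of 25 members lie above 0 in each; in the right panels red marks the members past the threshold, with GLIS3 at 0.88 and AK3, PLGRKT and DMAC1 below 0 for sgUFM1 against set 2, and DMAC1 at 0.71 for set 1 against the controls for sgUFL1.

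The guides against UFL1 and UFM1 give a different picture of the stretch under each naming. Under the FPKM names its members had a median of 0.50 for the UFL1 guide and 0.47 for the UFM1 guide against their own controls. Under the count names these medians were -0.03 and -0.07. The difference of the guide effects, UFL1 minus UFM1, is the same contrast under either naming, and it did not enter the choice of the stretch. It passed for DMAC1 at 1.19 (SE 0.16, edgeR quasi-likelihood test, adjusted p = 0.00081), beside 4.49% of all tested genes higher. It also passed for GLIS3 at -0.91 (SE 0.23, edgeR adjusted p = 0.028), beside 3.41% of all tested genes lower and 7.9% in either direction. In GLIS3 the call ended without set 2 replicate 2 or 3, set 1 replicate 2 or any sgUFM1 library, with edgeR adjusted p between 0.051 and 0.079, and the DMAC1 call held under all alternatives. JAK2, at 0.38 (SE 0.26, edgeR adjusted p = 0.40), and PSIP1, at 0.01 (SE 0.11, edgeR adjusted p = 0.97), did not pass. Without the GC correction PSIP1 passed at -0.42 (edgeR adjusted p = 0.021), beside 17% of all tested genes lower in that fit.

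Genes between the members but outside the definition moved in part with them. CD274 averaged 46.7 ± 2.28 CPM in sgUFM1, 53.6 ± 2.93 in set 2, 31.3 ± 5.28 in set 1 and 34.9 ± 3.32 in the controls for sgUFL1, and PDCD1LG2 averaged 5.20 ± 1.19 CPM in sgUFM1, 4.42 ± 0.948 in set 2, 3.84 ± 0.495 in set 1 and 3.21 ± 0.372 in the controls for sgUFL1 (SD, n = 3 each). The median of these 2 genes was 0.52 for both high sets against both low sets. Of 115 non-coding genes and pseudogenes in the interval only 5 were tested, with values for the same contrast of 1.06 for LINC01235, 0.36 for LURAP1L-AS1, 0.35 for RN7SL5P, -0.27 for LDHAP4 and -0.54 for RPS26P3. Only LINC01235 was above the controls for sgUFL1 in both sgUFM1 (1.27) and set 2 (0.56). In the same order LURAP1L-AS1 was at -0.01 and 0.64, and RN7SL5P was at 0.53 and -1.30. Pseudogenes share reads with their parent genes, so LDHAP4 and RPS26P3 are uncertain.

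Over the 12 libraries, Pearson correlations of corrected log2 CPM with JAK2 are given as a description, since all genes share the libraries. The stretch was chosen by its level in these same libraries, which helped to fix the correlations of its members, so nothing is read from their share. For the 24 other tested members they ran from -0.19 (CCDC171) to 0.90 (CDC37L1), with a median of 0.64, and 19 of them, or 79.2%, were above 0.5, as were 12% of 12910 other tested protein-coding genes. GLIS3 was at 0.37 and PSIP1 at 0.80. Outside the stretch the genes most like JAK2 over the 12 libraries were CARD19 (r = 0.93) and NANS (r = 0.93), both on the long arm of chromosome 9, TWF2 on chromosome 3 (r = 0.91), LMAN1 on chromosome 18 (r = 0.91) and SCRN2 on chromosome 17 (r = 0.90).

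Other genes of JAK-STAT signalling, none of them on the stretch, were tested in sgUFM1 and in set 2 against the controls for sgUFL1, which both contrasts share. Under neither naming are these the controls of the sgUFM1 guide. Rises and falls in sgUFM1, here and below, are therefore differences from this group and not the guide's own effect. In sgUFM1 6.03% of all tested genes rose and 6.26% fell, and in set 2 6.16% rose and 5.83% fell. Of 24 tested kinases, receptors and STAT factors 3 rose and 2 fell in sgUFM1, with a median of -0.05, and 0 rose and 5 fell in set 2, with a median of -0.18, against 0.00 and -0.01 for all tested genes. In sgUFM1 IL6ST, the shared receptor of the interleukin-6 family, rose by 0.38 (SE 0.11, edgeR quasi-likelihood test, adjusted p = 0.032) and the interferon-gamma receptor chain IFNGR2 by 0.36 (SE 0.11, edgeR adjusted p = 0.037), while STAT3 fell by 0.24 (SE 0.07, edgeR adjusted p = 0.028). These 3 calls were lost in 10, 13 and 11 of 24 alternatives, and IL6ST was at 0.14 without the GC correction. For sgUFM1 against set 2 and set 1, IL6ST was at 0.27 and 0.30 (edgeR adjusted p of 0.11 and 0.1) and did not pass. It passed in 10 and 5 of 24 alternatives, among them without the GC correction (0.60 and 0.45, edgeR adjusted p of 0.0024 and 0.029). STAT3 was at -0.08 and -0.18 in these contrasts (edgeR adjusted p of 0.49 and 0.11) and did not pass. IFNGR2 passed against set 2 (0.55, edgeR adjusted p = 0.0034) and not against set 1 (0.28, edgeR adjusted p = 0.12). Of 23 tested inhibitors and adaptors 1 rose and 2 fell in sgUFM1, with a median of -0.08, and 0 rose and 4 fell in set 2, with a median of -0.11. SH2B3, an adaptor that restrains JAK2, rose by 0.51 (SE 0.06, edgeR adjusted p = 0.0003) in sgUFM1 and fell by 0.36 (SE 0.06, edgeR adjusted p = 0.0032) in set 2, where it was at -0.05 without the GC correction. It stood at 446.8 CPM in sgUFM1, 245.5 in set 2, 309.7 in set 1 and 314.4 in the controls for sgUFL1. In sgUFM1 SOCS2, a feedback inhibitor, fell by 0.69 (SE 0.15, edgeR adjusted p = 0.011) and the phosphatase PTPN1 by 0.23 (SE 0.06, edgeR adjusted p = 0.016), calls that were lost in 2 and 5 of 24 alternatives. For sgUFM1 against set 2 and set 1, SH2B3 (0.86 and 0.53) and PTPN1 (-0.38 and -0.31) passed in both, with edgeR adjusted p of at most 0.0051. SOCS2 passed against set 2 (-1.09, edgeR adjusted p = 0.00043) and not against set 1 (-0.33, edgeR adjusted p = 0.23).

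Of 26 tested genes known to be induced through STAT factors 5 rose and 1 fell in sgUFM1 against the controls for sgUFL1, with a median of 0.19, and 6 rose and 2 fell in set 2, with a median of -0.02. All tested genes had 6.03% higher and 6.26% lower in the first contrast and 6.16% and 5.83% in the second. The interferon-induced GTPase GBP2 rose by 0.75 (SE 0.10, edgeR adjusted p = 0.00045) in sgUFM1 and by 0.69 (SE 0.10, edgeR adjusted p = 0.00079) in set 2. Its means of 34.5 CPM in sgUFM1 and 33.2 in set 2 against 22.01 in set 1 and 20.6 in the controls for sgUFL1 were ordered in the same high and low sets as the stretch, and GBP2 passed under all 24 alternatives in both contrasts. JUNB rose by 0.36 (SE 0.08, edgeR adjusted p = 0.0076) in sgUFM1 and stood at -0.01 (SE 0.08, edgeR adjusted p = 0.97) in set 2, but without the GC correction at 0.78 in sgUFM1 and 0.83 in set 2 (edgeR adjusted p of 0.0011 and 0.00022). For MYC the direction differed, with a fall of 0.58 (SE 0.09, edgeR adjusted p = 0.0016) in sgUFM1 and a rise of 0.37 (SE 0.09, edgeR adjusted p = 0.019) in set 2, or 0.77 without the GC correction. MYC was also lower in sgUFM1 than in set 2 (-0.95, edgeR adjusted p = 3e-05) and set 1 (-0.39, edgeR adjusted p = 0.019). GBP2 passed for sgUFM1 against set 1 (0.65, edgeR adjusted p = 0.0015) and not against set 2 (0.055, edgeR adjusted p = 0.76). JUNB passed against set 2 (0.37, edgeR adjusted p = 0.0045) and not against set 1 (0.15, edgeR adjusted p = 0.25). The call against set 2 was lost in 5 of 24 alternatives, and without the GC correction the value was -0.05 (edgeR adjusted p = 0.8).

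Of 42 tested paralogs and complex partners of the members elsewhere in the genome 2 rose and 3 fell in sgUFM1 against the controls for sgUFL1, with a median of 0.02, and 1 rose and 2 fell in set 2, with a median of 0.02, so that 11.9% passed in sgUFM1, beside 12.3% of all tested genes. JAK1, the kinase paired with JAK2 at interferon-gamma receptors, was lower than in the controls for sgUFL1 by 0.27 (SE 0.08, edgeR quasi-likelihood test, adjusted p = 0.037) in sgUFM1. In set 2 it was lower by 0.35 (SE 0.08, edgeR adjusted p = 0.012), and these calls were lost in 8 and 1 of 24 alternatives. For sgUFM1 against set 2 JAK1 was at 0.075 (SE 0.08, edgeR adjusted p = 0.59) and against set 1 at -0.01 (SE 0.08, edgeR adjusted p = 0.95). Set 1 was at -0.26 (SE 0.08, edgeR adjusted p = 0.22) against the controls for sgUFL1. TYK2 was at -0.05 (SE 0.09, edgeR adjusted p = 0.77) in sgUFM1 against these controls. SLC1A4, a neutral amino acid transporter of the SLC1A1 family, rose by 0.81 (SE 0.13, edgeR adjusted p = 0.0014) in sgUFM1. SNAPC1, a partner of SNAPC3 in the same complex, fell by 0.43 (SE 0.07, edgeR adjusted p = 0.0021) in sgUFM1 and rose by 0.35 (SE 0.07, edgeR adjusted p = 0.0066) in set 2, where the value was -0.13 (edgeR adjusted p = 0.30) without the GC correction. The receptor phosphatase PTPRG rose by 0.42 (SE 0.09, edgeR adjusted p = 0.0096) in sgUFM1. For sgUFM1 against set 2 and set 1, SLC1A4 (0.49 and 1.10) and SNAPC1 (-0.78 and -0.45) passed in both, with edgeR adjusted p of at most 0.017. PTPRG passed against set 2 (0.34, edgeR adjusted p = 0.023) and not against set 1 (0.30, edgeR adjusted p = 0.062).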

How the data were processed

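Gene expression was measured by RNA sequencing of TRIzol-extracted RNA from MDA-MB-231 cells in 4 groups of 3 libraries. The authors deposited a table of read counts per gene and a table of FPKM values (counts scaled to library size and gene length); per the submitters' processing notes the tools were fastp 0.20.1, STAR 2.7.7a and featureCounts 2.0.0 with GRCh38, settings and strand handling being not given in the sources used here. The deposited FPKM columns matched the count columns of the same library with an SD of the log2 ratio of at most 6.46e-10 over 12320 genes, 6 of them under another group's name, and no other column came closer than 0.193.

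Counts were fitted for all 12 libraries in 1 model with edgeR 4.0.16 (R 4.3.3): filterByExpr, TMM, offsets for the lowess trend (span 0.3) with GC content and gene length per library, the quasi-likelihood test and Benjamini-Hochberg adjustment over 15821 genes at 0.05. A log2 difference has the SE that its F statistic implies, and levels use a prior count of 0.5. The fit was tested on simulated data. Alternatives used other offsets, scalings, filters, DESeq2 1.42.0, limma 3.58.1 on log2(FPKM + 0.5, 0.1 or 1), fewer libraries and the replicate number as a block. Replicate libraries differed by more than sampling noise.

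The members and gene lists were chosen with earlier results of these data known. By the rule for named genes, all tested members are given, with every library for JAK2, GLIS3, PSIP1 and the 7 others of highest mean CPM, UFL1 and UFM1 as a check of names, the 3 tested genes nearest outside each edge, up to 3 genes per list of smallest p in sgUFM1 against the controls for sgUFL1, and the 5 genes most correlated with JAK2. The library values of DMAC1 and the values of JAK1, TYK2 and the checkpoint ligand genes stand beside this rule. RefSeq promoter sequences are of GRCh38.p14. Intervals and floors cover counting error only.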

Additional observations from a re-analysis of the deposited data

Results flagged for a closer look

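For 2 members the effects of the guides against UFL1 and UFM1 differed by a test of the difference itself, which is the same contrast under either naming of the libraries. They are 8% of the 25 tested members, beside 7.9% of all tested genes, so the stretch did not stand out by this count. In GLIS3 the UFL1 effect minus the UFM1 effect was -0.905 on the log2 scale (SE 0.23, edgeR quasi-likelihood test, adjusted p = 0.028). This call ended without set 2 replicate 2 or 3, set 1 replicate 2 or any sgUFM1 library (edgeR adjusted p between 0.051 and 0.079). Its mean was 25.3 ± 1.05 CPM in sgUFM1, 13.7 ± 0.914 in set 2, 12.6 ± 2.09 in set 1 and 12.8 ± 3.43 in the controls for sgUFL1 (SD, n = 3 each), and the 3 sgUFM1 libraries stood above the other 9. In DMAC1 the difference was 1.190 (SE 0.16, edgeR adjusted p = 0.00081). Its values ran between 11.8 and 14.95 CPM in sgUFM1, 17.1 and 20.1 in set 2, 11.7 and 12.3 in set 1 and 7.27 and 7.48 in the controls for sgUFL1, and the 3 controls for sgUFL1 stood below the other 9.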

How the results depend on the processing

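Values without the GC and length correction, with DESeq2 (which has no such correction) and with limma on log2(FPKM + 0.5, 0.1 or 1) are given in this order. For sgUFM1 against the controls for sgUFL1 the member median was 0.242, 0.244, 0.191, 0.231 and 0.176, with 5 of 25 members called in each, beside 16.2%, 21%, 13.2%, 13.3% and 13.2% of all genes tested. For set 2 against these controls it was 0.185, 0.192, 0.149, 0.181 and 0.122, with 3 called in each, beside 40.6%, 39.7%, 38.6%, 38.5% and 38.4% of all genes. For set 1 against them it was -0.209, -0.213, -0.167, -0.202 and -0.133, with 3, 5, 2, 2 and 2 called, beside 21.9%, 33%, 19.1%, 19% and 19.1% of all genes, and 0 called with the 6 libraries of the comparison alone. For sgUFM1 against set 2 the median turned to 0.120, 0.126, 0.056, 0.067 and 0.047. The difference of the guide effects then called 5, 5, 6, 6 and 6 members under either naming, beside 34.8%, 36%, 32.7%, 32.7% and 32.7% of all genes. In PSIP1 this difference turned to -0.421, -0.423, -0.399, -0.417 and -0.379. It passed in each of these fits, with adjusted p of 0.021 (edgeR), 0.011 (DESeq2) and 0.022, 0.023 and 0.022 (limma). For sgUFM1 against set 1 the median was 0.569 without the correction and 0.337 with limma on log2(FPKM + 1), and 10 members were called with no filter beyond 1 count, beside 4.8% of all genes. Without the correction the level of the stretch was 0.168 in set 2 and -0.070 in the controls for sgUFL1. The separation of the 6 high from the 6 low libraries without the correction, given with the results, was computed after seeing the data. The alternatives without the correction differ from the others by construction, and why the values moved was not tested further. Apart from the 10 calls for sgUFM1 against set 1 with no filter beyond 1 count, counts of calls under the other scalings and filters stayed within 1.5 times of those reported.

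Leaving out each library in turn gave member medians of 0.31 to 0.471 and 4 to 12 calls for sgUFM1 against the controls for sgUFL1, with 4 calls without sgUFM1 replicate 1 and 6 without replicate 3. For set 2 against these controls the ranges were 0.373 to 0.55 and 7 to 11 calls, and for sgUFM1 against set 1 they were 0.434 to 0.527 and 4 to 9 calls. For sgUFM1 against set 2 they were -0.159 to -0.07 and 1 to 5 calls, with 2 calls without set 2 replicate 2 or 3 and 1 without sgUFM1 replicate 3. For set 1 against the controls for sgUFL1 they were -0.118 to 0.044 and 0 to 2 calls, with 2 without replicate 2 of the controls for sgUFL1 and 0 without replicate 1 or 3 of these controls, 2 or 3 of set 2, 2 or 3 of set 1 or 2 of sgUFM1. The difference of the guide effects had 1 to 2 calls, with 1 without set 2 replicate 2 or 3, set 1 replicate 2 or any sgUFM1 library. With all 12 libraries, the shares of all tested genes called in these contrasts were 12.3%, 12%, 7.62%, 14.7%, 0.265% and 7.9%, in the order given. Shares in the fits without a library are not given here, so nothing is read from these counts of calls.

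The replicate numbers were not taken to pair the libraries, since no pair of groups had all 3 correlations of same-numbered libraries above 0.1. Of same-numbered pairs 7 of 18 were above 0.1 (range -0.445 to 0.669), against 5 of 36 others, and set 1 and the controls for sgUFL1 had 0.606, 0.669 and -0.445 for replicates 1, 2 and 3. With the replicate number as a block, 11 members were called for sgUFM1 against the controls for sgUFL1, beside 14.6% of all tested genes. For set 2 against these controls 10 were called, beside 13.7%, and for sgUFM1 against set 1 9, beside 9.32%. Nothing is read from the counts in these contrasts, which chose the stretch. For sgUFM1 against set 2 4 were called, beside 16.7%. Set 1 against the controls for sgUFL1 had 1, beside 0.449%, and the difference of the guide effects 2, beside 9.44%.

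Depth was lowest in INSL4, TYRP1 and CCDC171, with 1 to 23 counts per library, where the SE of the differences between groups ran from 0.43 to 0.70, against 0.08 in PSIP1.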
